A study of Mus musculus with 3 samples.

Results

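Apoptosis is held in check at the mitochondrion by the BCL2 family, and the 7 genes described here cover that step from its regulators to the first caspase. They were the effectors Bax and Bak1, the BH3-only gene Bbc3, the anti-apoptotic genes Bcl2, Bcl2l1 and Mcl1, and the initiator caspase gene Casp9. They were chosen by name, 7 of 18545 genes in the matrix, and were read in every deposited cell cluster and library with the photoreceptor clusters (1 and 4) first. Retinas were studied by droplet single-cell RNA-seq in 3 groups of C57BL/6J mice aged 8 weeks. The WT group was wild type. The rd10-vehicle and rd10-TMB groups carried the rd10 missense mutation of Pde6b, the catalytic beta subunit of the rod phosphodiesterase, which causes the rods to degenerate first and the cones later. TMB is the combination of tamsulosin, metoprolol and bromocriptine, given to the rd10-TMB group in the chow, while the WT and rd10-vehicle groups ate the base chow. The rd10 mice lived in the dark, which slows the loss of rods in this line. The study does not state the rearing of the WT mice for this experiment. Each group was 1 library, made from 1 retina of each of 4 mice per the labels, though the methods of the study give fewer mice for each rd10 group. The rd10 mice were female while the WT pool held both sexes.

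In the intrinsic pathway, Bax and Bak1 proteins open pores in the outer mitochondrial membrane. BH3-only proteins such as PUMA, the product of Bbc3, switch them on or release them, and Bcl2, Bcl-xL (from Bcl2l1) and Mcl1 bind and restrain them. Once cytochrome c leaves the mitochondrion, it assembles Apaf1 into the apoptosome, which activates caspase 9 and through it the executioner caspases. Much of this control acts on proteins, by cleavage, phosphorylation, relocation and turnover, so a transcript level does not give the activity of the pathway.

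The 3 libraries held 4478 WT, 5952 rd10-vehicle and 4812 rd10-TMB cells. Their unique molecular identifiers (UMIs, each a counted transcript molecule) numbered 18882951, 37002532 and 29192530. Cluster 1 was called rod-like because 10 of 10 rod markers were at least 2-fold enriched there, and cluster 4 was called cone-like on 10 of 10 cone markers. Rod-like cells numbered 1180, 556 and 746 in WT, rd10-vehicle and rd10-TMB, with medians of 1423, 1406 and 1536 UMIs per cell. Cone-like cells numbered 278, 542 and 412 and were deeper, with medians of 5333, 4857 and 5548 UMIs. Pairs of libraries shared 7 to 10 cell barcodes, and the median mitochondrial share was 6.31% to 6.51% over all cells of a library. Among cones the libraries were less alike, and 195 of 278 WT, 257 of 542 rd10-vehicle and 190 of 412 rd10-TMB cells had a share of 10% or less.

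Levels are given as CPM, the UMIs of a gene per 1000000 UMIs of that cluster in that library. With 1 library per group there was no replicate check and no test, so each log2 ratio carries an exact conditional 95% interval that covers counting error alone and says nothing of the spread between mice. A gene was compared where it had at least 20 UMIs over the pair of libraries, and a level is called higher or lower where it was at least 1.5-fold apart. The rd10-vehicle and rd10-TMB values were set against the same WT library, so their ratios over WT are not independent of each other. In the ratios over WT the genotypes also differ in the sex of the pooled mice, and rd10-TMB differs in diet too. Against WT cells taken as female by their Xist and Y-linked UMIs, the log2 ratios of Bax in cones were 1.15 (rd10-vehicle) and 1.21 (rd10-TMB), on 16 WT UMIs, and those of Mcl1 in Müller glia-like cells were 1.10 and 0.94.

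In the photoreceptors, few members were apart between libraries, and whether rods and cones differed in this was not tested. Bax was higher in the cones of both rd10 libraries than in WT cones. Mcl1 was higher in rd10-vehicle rods and Bcl2 in rd10-TMB rods than in WT rods, and Bcl2 in cones of rd10-TMB exceeded that in cones of rd10-vehicle. Neither rod difference was seen among cells with few immediate-early transcripts, a selection made after the values were seen, which left few UMIs. Bak1, Bbc3 and Casp9 were represented by at most 20 UMIs in any photoreceptor cluster and library.

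**Figure D1:**
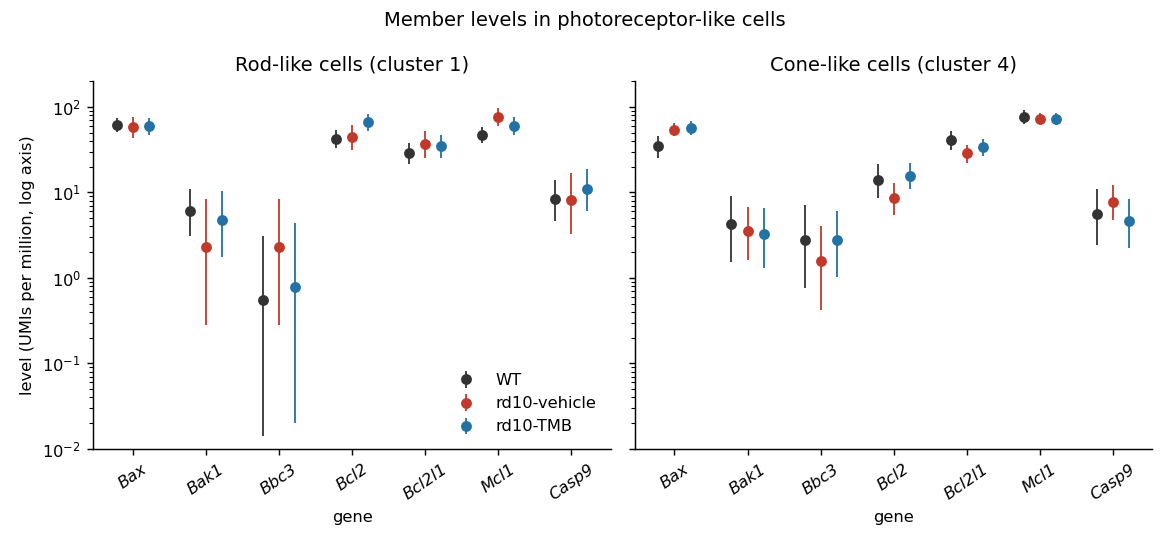
Level of each of the 7 members in rod-like (cluster 1) and cone-like (cluster 4) cells, in CPM on a logarithmic vertical axis, with 1 point per library (WT, rd10-vehicle, rd10-TMB) and bars for exact Poisson 95% intervals that cover counting error only. Bax stands at 34.4 CPM in WT cones against 54.2 and 56.6 CPM in the rd10 libraries, and Bcl2 is higher in rods than in cones in all 3 libraries.

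Bax lies on the minus strand of chromosome 7, at chr7:45461697-45466898 in GRCm38 (mm10). The annotation places a second gene, Gm45808, over it on the same strand, and reads that fall in both cannot be told apart. In cone-like cells Bax had 49, 139 and 123 UMIs in WT, rd10-vehicle and rd10-TMB, or 34.4, 54.2 and 56.6 CPM. The WT library was the low one, and the rd10 libraries were close to each other. The log2 ratio of Bax over WT cones was 0.66 in rd10-vehicle, with an interval of 0.18 to 1.16, and 0.72 in rd10-TMB, with an interval of 0.23 to 1.23. Between the rd10 libraries it was 0.06, with an interval of -0.30 to 0.42. Of the cone-like cells, 16.2% of WT, 22.9% of rd10-vehicle and 26.2% of rd10-TMB had a Bax UMI. After each cell was thinned to 1000 UMIs, these Bax shares were 3.25%, 5.03% and 5.64%, in the same order.

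In rod-like cells Bax had 111, 50 and 75 UMIs, or 61.7, 58.1 and 59.4 CPM in WT, rd10-vehicle and rd10-TMB. The rod levels of Bax lay within counting error of each other, and the intervals of all 3 log2 ratios, -0.09, -0.06 and 0.03, held 0. Their intervals still allowed a difference of up to -0.60 or 0.58 on the log2 scale. WT cones thus had the lowest Bax level of the 6 photoreceptor values, while the rd10 cones were near the level of rods.

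Bak1, the second effector, lies at chr17:27019810-27029009 on the minus strand, and annotated genes named Ggnbp1 overlap it on the other strand. It had 11, 2 and 6 UMIs in rods and 6, 9 and 7 in cones of WT, rd10-vehicle and rd10-TMB. These are 6.12, 2.32 and 4.75 CPM of Bak1 in rods and 4.21, 3.51 and 3.22 CPM in cones. All intervals overlapped, and the Bak1 counts were too few to be compared between libraries.

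Bbc3, whose product PUMA is a BH3-only activator under p53 and other stress signals, lies at chr7:16308393-16318205 on the plus strand. It was near the limit of detection in photoreceptors. Rods held 1, 2 and 1 Bbc3 UMIs and cones 4, 4 and 6 in WT, rd10-vehicle and rd10-TMB. The pooled level of Bbc3 was 1.02 CPM in rods, with an interval of 0.278 to 2.61, and 2.27 CPM in cones, with an interval of 1.24 to 3.81. No difference in Bbc3 between groups was detectable at this depth.

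Bcl2 and Mcl1, the anti-apoptotic members that differed between photoreceptor libraries, are shown with the 250 bases before their RefSeq start (GRCm38.p6), read 5′ to 3′ on the strand of the gene, with matches to the GC box (GGGCGG on either strand) in capitals. The Bcl2 window is chr1:106714291-106714540 on the minus strand and holds 7 matches, and the Mcl1 window is chr3:95658471-95658720 on the plus strand and holds 1.

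Bcl2: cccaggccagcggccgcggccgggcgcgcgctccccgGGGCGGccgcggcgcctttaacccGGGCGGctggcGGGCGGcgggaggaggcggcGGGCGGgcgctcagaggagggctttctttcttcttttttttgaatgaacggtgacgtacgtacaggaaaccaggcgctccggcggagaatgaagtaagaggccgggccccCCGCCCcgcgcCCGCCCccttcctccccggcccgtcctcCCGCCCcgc
Mcl1: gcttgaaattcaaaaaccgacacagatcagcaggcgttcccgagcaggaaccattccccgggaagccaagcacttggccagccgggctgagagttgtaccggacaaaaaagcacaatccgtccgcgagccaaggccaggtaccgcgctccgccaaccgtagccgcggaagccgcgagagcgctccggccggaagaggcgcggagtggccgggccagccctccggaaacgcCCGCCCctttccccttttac

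All 7 members had at least 1 RefSeq window, 11 windows in all, each of 300 bases (250 before the start and 50 after). Of 32851 such mouse windows, 35.7% held the GC box, which is bound by Sp factors. Bax held 3 matches and Casp9 held 4, the 3 Bbc3 windows held 5, 4 and 7, and the Bak1 window and the 3 Bcl2l1 windows held none. The cAMP response element TGACGTCA, the AP-1 letters TGANTCA and the STAT letters TTCNNNGAA, found in 1.79%, 7.81% and 8.30% of all windows, matched in no member. The E-box CACGTG, in 7.15% of windows, matched at 2 places in Bax and at 1 in a Bbc3 window. Both strands were searched, no match overlapped another motif in the printed windows, and a match is a description of letters only.

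Bcl2, the founding anti-apoptotic member, spans 176097 bases at chr1:106538178-106714274 on the minus strand, with Gm37053 and Mir3473f inside it on the same strand. In rod-like cells Bcl2 had 76, 38 and 83 UMIs in WT, rd10-vehicle and rd10-TMB, or 42.3, 44.2 and 65.7 CPM. Only the rd10-TMB rods stood higher. The log2 ratio of Bcl2 in rods was 0.64 for rd10-TMB over WT, with an interval of 0.17 to 1.10, and 0.57 for rd10-TMB over rd10-vehicle, with an interval of 0.00 to 1.17, while rd10-vehicle over WT was 0.06. The value of 0.57 lay just under the 1.5-fold limit. That of 0.64 fell under it in 4 of 10 alternatives, at 0.42 against WT cells taken as female by their Xist and Y-linked UMIs, 0.43 in cells with at least 1000 genes, 0.55 at a mitochondrial share of 10% or less and 0.01 among cells with few immediate-early UMIs. Bcl2 was seen in 5.85%, 6.12% and 10.1% of rod-like cells, and in 4.29%, 4.71% and 6.27% after thinning to 1000 UMIs. In rod bipolar-like cells, which were deeper with medians of 3638 to 5032 UMIs, the Bcl2 shares were 0.741%, 0.549% and 0.464%, so the rod share was above the level seen where the gene was nearly absent.

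In cone-like cells Bcl2 had 20, 22 and 34 UMIs in WT, rd10-vehicle and rd10-TMB, or 14.0, 8.58 and 15.7 CPM. Here rd10-vehicle was the low library. The log2 ratio of Bcl2 in cones was -0.71 for rd10-vehicle over WT, with an interval of -1.65 to 0.24, and 0.87 for rd10-TMB over rd10-vehicle, with an interval of 0.05 to 1.71. Among cones with few immediate-early UMIs, these were -0.06 and 0.52. For rd10-TMB over WT it was 0.16, with an interval of -0.68 to 1.03. Bcl2 was seen in 6.12%, 3.87% and 7.28% of cone-like cells, and the intervals of these shares overlapped in each pair.

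Bcl2l1, which encodes Bcl-xL, lies at chr2:152780668-152831728 on the minus strand and did not reach 1.5-fold between photoreceptor libraries. It had 52, 32 and 44 UMIs in rods of WT, rd10-vehicle and rd10-TMB, or 28.9, 37.2 and 34.8 CPM. In cones Bcl2l1 had 58, 73 and 73 UMIs, or 40.7, 28.5 and 33.6 CPM. The Bcl2l1 log2 ratio farthest from 0 was that of rd10-vehicle over WT cones, at -0.52 with an interval of -1.03 to 0.01.

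Mcl1, whose protein is short-lived and must be made continually, lies at chr3:95658788-95663176 on the plus strand. In rod-like cells Mcl1 had 84, 66 and 76 UMIs in WT, rd10-vehicle and rd10-TMB, or 46.7, 76.7 and 60.1 CPM. The rd10-vehicle rods were highest and the rd10-TMB rods lay between the others. The log2 ratio of Mcl1 in rods was 0.71 for rd10-vehicle over WT, with an interval of 0.23 to 1.20, 0.36 for rd10-TMB over WT and -0.35 for rd10-TMB over rd10-vehicle, and the intervals of the last 2 held 0. Mcl1 was seen in 6.95%, 11.3% and 9.52% of rod-like cells, and in 4.81%, 8.01% and 5.93% after thinning. In cone-like cells Mcl1 had 109, 186 and 155 UMIs, or 76.5, 72.5 and 71.3 CPM. The cone levels of Mcl1 lay within counting error of each other, with log2 ratios of -0.08, -0.10 and -0.02.

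Casp9, the initiator caspase of the apoptosome, lies at chr4:141793612-141815976 on the plus strand, with Cela2a and Ctrc over it on the other strand. It had 15, 7 and 14 UMIs in rods of WT, rd10-vehicle and rd10-TMB, or 8.34, 8.13 and 11.1 CPM, and 8, 20 and 10 UMIs in cones, or 5.61, 7.80 and 4.60 CPM. Of the cone values, that of rd10-vehicle was highest. For rd10-TMB over rd10-vehicle, Casp9 in cones was past 1.5-fold lower, at a log2 ratio of -0.76, but its interval of -2.02 to 0.40 held 0.

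Counted over the members, the photoreceptor differences were few. In rods, 5 members met the count minimum in each comparison. For rd10-vehicle over WT, 1 member was higher (Mcl1) and 0 lower, beside 7.89% of all genes higher and 14.7% lower. For rd10-TMB over WT, 1 was higher (Bcl2) and 0 lower, beside 6.46% and 13% of all genes. For rd10-TMB over rd10-vehicle, 0 members were past the limit in rods, beside 7.46% higher and 7.77% lower. In cones, rd10-vehicle over WT had 1 of 5 members higher (Bax) and 1 lower (Bcl2), beside 7.32% and 8.34% of all genes. There, rd10-TMB over WT had 1 of 4 higher (Bax) and 0 lower, beside 6.39% and 8.9%, and rd10-TMB over rd10-vehicle had 1 of 5 higher (Bcl2) and 1 lower (Casp9), beside 3.77% and 5.81%. With 4 or 5 members counted, a count of 1 cannot be set apart from these shares of all genes.

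**Figure D2:**
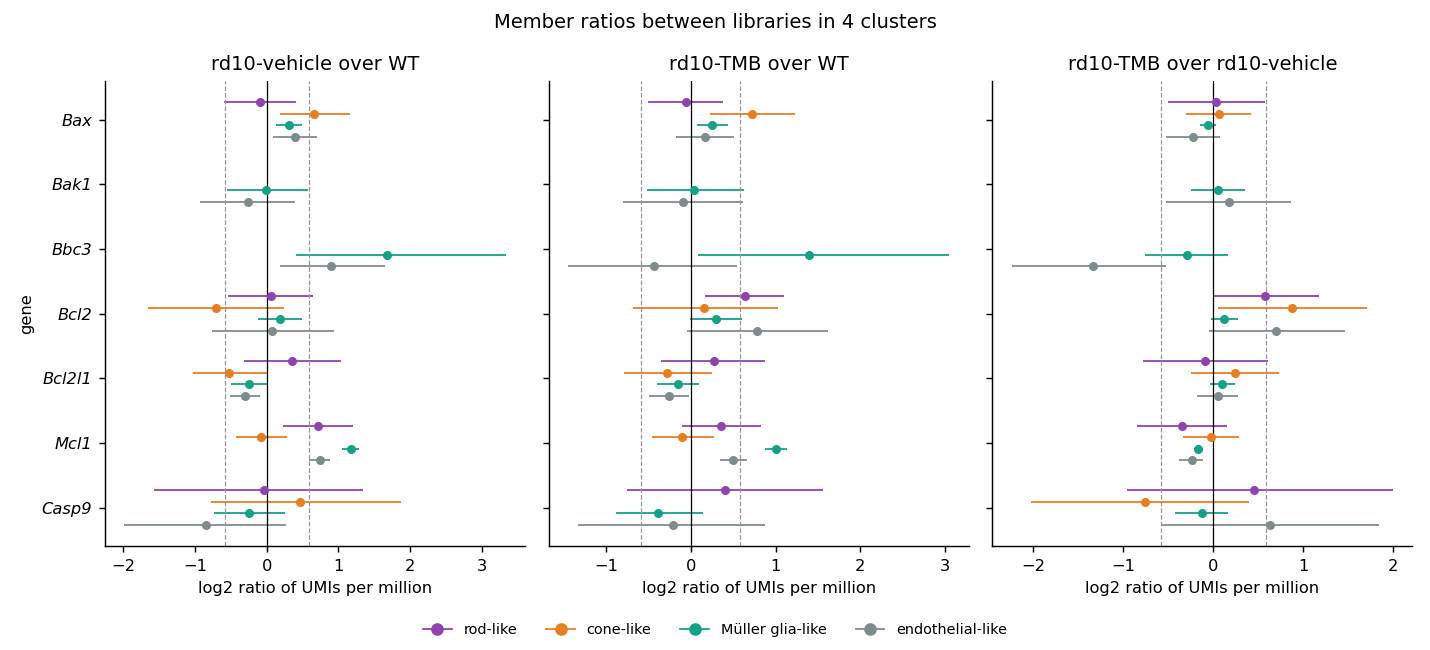
Log2 ratios of the members between libraries (horizontal axis, no pseudocount) in rod-like, cone-like, Müller glia-like and endothelial-like cells, with exact conditional 95% intervals for counting error and dashed lines at 1.5-fold. In cones, Bax over WT lies past the line at 0.66 and 0.72, and in Müller glia-like cells Mcl1 over WT stands at 1.17 and 1.0 with narrow intervals.

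Transcripts of other kinds moved with the rd10 libraries in the same cells. The summed level of 16 immediate-early genes, which are switched on within minutes by stimulation and by tissue dissociation, was 1819, 4639 and 4297 CPM in rods of WT, rd10-vehicle and rd10-TMB and 4311, 9069 and 6981 CPM in cones. The summed level of 10 Müller glia markers, all 10 of them detected in each library, was 255, 753 and 640 CPM in rods and 338, 780 and 718 CPM in cones. The sum of 10 lens genes was 2.78, 99.9 and 131 CPM in rods, where 6, 1 and 2 of them were at 0, and 0, 27.3 and 42.3 CPM in cones, where 10, 2 and 3 were at 0. Among rod-like cells whose immediate-early share was at or below the median, 819 of 1180 WT, 202 of 556 rd10-vehicle and 220 of 746 rd10-TMB cells were left. In these cells the log2 ratio of Mcl1 for rd10-vehicle over WT was -0.19, on 14 and 63 UMIs, and that of Bcl2 for rd10-TMB over WT was 0.01, on 19 and 57 UMIs. The same selection, which was chosen after the values were seen, took Bax in rd10-vehicle over WT cones to 0.42, on 35 and 40 UMIs, and left it at 0.63 for rd10-TMB over WT.

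The Müller glia marker sums can be put on the scale of the members, if such RNA is taken to have the profile of cluster 0. At the ratio of Mcl1 to Müller glia markers found in cluster 0, the marker level of rods would carry 1.05, 6.27 and 4.84 CPM of Mcl1 in WT, rd10-vehicle and rd10-TMB, against measured rod levels of 46.7, 76.7 and 60.1 CPM. Computed the same way, it would carry 0.185, 0.554 and 0.522 CPM of Bcl2 in rods. In cones it would carry 0.657, 1.68 and 1.52 CPM of Bax. Among rods with few Müller glia UMIs, Mcl1 for rd10-vehicle over WT was 0.78, and among such cones Bax was 0.56, just under the 1.5-fold limit. The part of Müller glia RNA in these differences was not tested further. Among cones with a mitochondrial share of 10% or less, Bax was 0.68 for rd10-vehicle and 0.81 for rd10-TMB over WT.

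The ratio of Bax to its inhibitors within a library needs no scaling of that library. Capture differs from gene to gene, so it is read between libraries and not as a balance of proteins. In cone-like cells WT held 2.45 Bax UMIs per Bcl2 UMI (interval 1.43 to 4.35), rd10-vehicle 6.32 (4.01 to 10.4) and rd10-TMB 3.62 (2.46 to 5.46). The ratio was highest in rd10-vehicle cones, on 22 Bcl2 UMIs. The intervals of each pair of libraries overlapped, which does not show that the ratios are the same. Per Bcl2l1 UMI, WT cones held 0.845 Bax UMIs (0.566 to 1.26), rd10-vehicle cones 1.90 (1.42 to 2.56) and rd10-TMB cones 1.69 (upper bound 2.28). For the Bax to Bcl2l1 ratio, the WT interval did not overlap that of rd10-vehicle and met that of rd10-TMB only at its edge.

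In rod-like cells the order was not that of cones. There were 1.46, 1.32 and 0.904 Bax UMIs per Bcl2 UMI in WT, rd10-vehicle and rd10-TMB, and 2.14, 1.56 and 1.71 per Bcl2l1 UMI. The intervals of all pairs overlapped in rods. Müller glia-like cells had 1.69, 2.49 and 2.23 Bax UMIs per Bcl2l1 UMI, with intervals of 1.38 to 2.06, 2.31 to 2.69 and 2.04 to 2.44.

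Across the 10 clusters with at least 50 cells in each library, out of 21 deposited, each member had its own profile. The 10 were Müller glia-like (0), rod-like (1), cone-like (4), rod bipolar-like (2), ON cone bipolar-like (3 and 10), OFF cone bipolar-like (7 and 8), endothelial-like (11) and 1 that stayed unnamed (6). The order of levels below pools the 3 libraries. Neighbours are described by whether their counting intervals overlap, and an overlap does not show that the levels are the same. Cluster 11 also carried pericyte markers, 10 of 10 beside 9 of 10 endothelial ones.

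**Figure D3:**
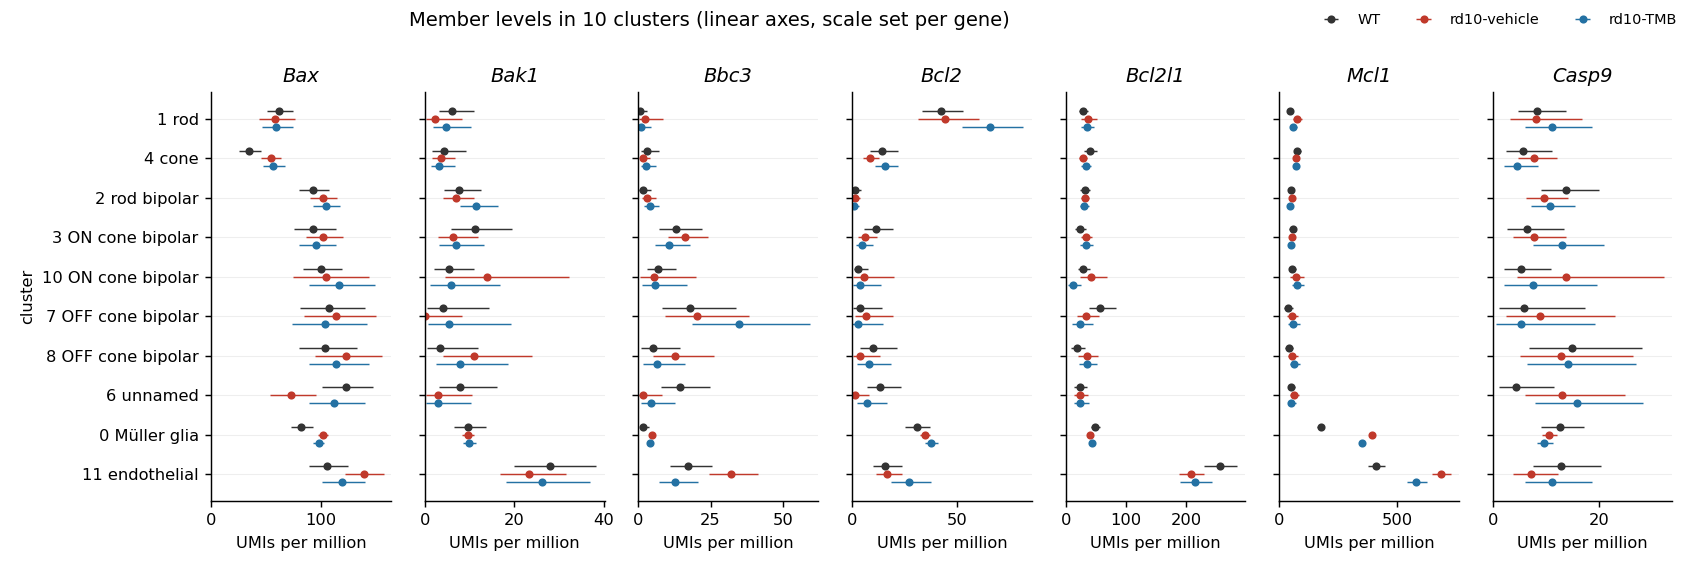
Level of each member (horizontal axis, CPM, linear from 0 with its own scale per gene) in the 10 compared clusters (rows), with 1 point per library and bars for exact Poisson 95% intervals that cover counting error only. Mcl1 and Bcl2l1 are highest in endothelial-like cells, Bcl2 is highest in rods, and Bax pooled over libraries is lowest in rods and cones.

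Bax was lowest in the photoreceptors. Pooled over libraries it stood at 60.2 CPM in rods and 50.5 CPM in cones, whose intervals overlapped, and at 97.4 to 123 CPM in the other 8 clusters, all of whose intervals lay above the rod interval of 52.7 to 68.4. The highest Bax level was that of endothelial-like cells at 123 CPM, followed by clusters 8 and 7 at 113 and 109 CPM. The intervals of neighbours in that order overlapped. Bak1 was highest in endothelial-like cells, at 25.6 CPM with an interval of 21.1 to 30.7, and 3.02 to 9.69 CPM elsewhere, where neighbours overlapped. Within each library the endothelial-like cells also held the most Bak1, 23.3 to 27.9 CPM.

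Bcl2 was highest in the rods, where Bax was low. It stood at 50.2 CPM in rods (43.5 to 57.8), then in Müller glia-like cells at 35.6 CPM (33.8 to 37.4) and endothelial-like cells at 19.3 CPM (15.4 to 23.8), and these 3 did not overlap. Cones stood at 12.3 CPM (9.72 to 15.4), an interval that met that of endothelial-like cells only at its edge. The 6 clusters of bipolar and unnamed cells had 1.37 to 7.90 CPM, and rod bipolar-like cells were lowest, with 10 Bcl2 UMIs among 1781 cells. In each library the rod level of Bcl2 was above that of the other 9 compared clusters.

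Bcl2l1 and Mcl1 were both highest in endothelial-like cells. Bcl2l1 stood at 225 CPM in endothelial-like cells (211 to 239) and at 23.7 to 42.7 CPM in the other 9 clusters. Among those, the interval of Müller glia-like cells overlapped that of cluster 7. Rods and cones shared nearly 1 level of Bcl2l1, 32.6 and 33.1 CPM. Mcl1 stood at 569 CPM in endothelial-like cells (547 to 592) and 359 CPM in Müller glia-like cells (353 to 365), and at 48.3 to 73.0 CPM in the 8 neuronal and unnamed clusters. Among those 8, cones had the highest Mcl1 in the pooled order and in WT. The pooled cone interval overlapped that of cluster 10 at 63.1 CPM. In rd10-vehicle, rods were above cones at 76.7 CPM, and in rd10-TMB cluster 10 was, at 76.3 CPM. Both intervals overlapped that of cones in the same library.

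Bbc3 was highest in OFF cone bipolar-like cluster 7, at 23.4 CPM (15.9 to 33.2), and in endothelial-like cells, at 22 CPM (17.8 to 26.8). These intervals overlapped. ON cone bipolar-like cluster 3 had 13.4 CPM, and rods were lowest at 1.02 CPM. Casp9 ran from 6.17 CPM in cones (4.36 to 8.46) to 14.0 CPM in cluster 8 (9.06 to 20.7). All neighbours in its order overlapped, but the cone interval lay below those of cluster 8, rod bipolar-like and Müller glia-like cells.

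Müller glia, the radial glia that span the retina and become reactive when photoreceptors die, gave the best-counted difference between groups. In Müller glia-like cells, 530, 2492 and 1748 of them in WT, rd10-vehicle and rd10-TMB, Mcl1 had 580, 8724 and 5874 UMIs, or 175, 393 and 350.1 CPM. WT was lowest and rd10-TMB lay between the others, nearer to rd10-vehicle. The log2 ratio of Mcl1 was 1.17 for rd10-vehicle over WT (1.05 to 1.29), 1.0 for rd10-TMB over WT (0.88 to 1.13) and -0.17 for rd10-TMB over rd10-vehicle (-0.21 to -0.12). Mcl1 was seen in 53.8%, 85.8% and 80.6% of these cells, which also differed in depth with medians of 6300, 8594 and 9454 UMIs, and in 14.3%, 29.7% and 26.0% after thinning to 1000 UMIs.

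The immediate-early sum in the same cells was 22680, 33787 and 33580 CPM. Markers of other cell types were also higher there in the rd10 libraries, with rod sums of 936, 1373 and 1478.7 CPM, cone sums of 180, 395 and 456 CPM and lens sums of 8.73, 45.5 and 33.7 CPM, and their part in the members' ratios was not tested. Among Müller glia-like cells with few immediate-early UMIs, a selection made after the values were seen, the Mcl1 ratio was 1.22 for rd10-vehicle over WT. Over all alternatives of scaling and of cells, it ran from 1.10 to 1.30 for rd10-vehicle over WT and from 0.86 to 1.11 for rd10-TMB over WT. Between the rd10 libraries it ran from -0.29 to -0.15, always lower in rd10-TMB and never near 1.5-fold.

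**Figure D4:**
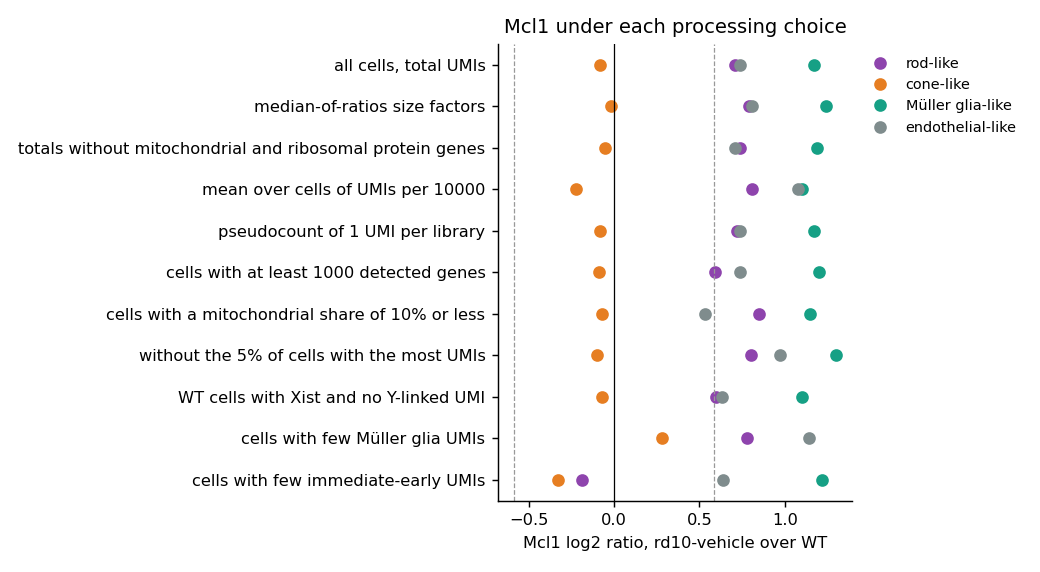
Log2 ratio of Mcl1 for rd10-vehicle over WT (horizontal axis) under each alternative of scaling, cells and pseudocount (rows), with 1 point for each of the rod-like, cone-like, Müller glia-like and endothelial-like clusters and dashed lines at 1.5-fold. In Müller glia-like cells every value lies between 1.10 and 1.30, while in rods the value moves from 0.71 to -0.19 among cells with few immediate-early UMIs.

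Bbc3 was the second member past the limit in Müller glia-like cells, at far lower counts. It had 5, 107 and 66 UMIs, or 1.51, 4.82 and 3.93 CPM in WT, rd10-vehicle and rd10-TMB. The log2 ratio of Bbc3 was 1.68 for rd10-vehicle over WT (0.41 to 3.33) and 1.39 for rd10-TMB over WT (0.09 to 3.05), both on 5 WT UMIs. The other 5 members stayed within 1.5-fold in these cells. Bax, at 82.2, 102 and 97.9 CPM, had ratios over WT of 0.31 (0.13 to 0.50) and 0.25 (0.07 to 0.44). Bcl2l1 was 48.8, 40.9 and 43.9 CPM, Bcl2 was 30.7, 34.7 and 37.7 CPM, Bak1 was 9.64, 9.55 and 9.89 CPM and Casp9 was 12.7, 10.6 and 9.72 CPM. Thus 2 of 7 members (Mcl1 and Bbc3) were higher and 0 lower in rd10-vehicle over WT, beside 11.6% of all genes higher and 11% lower, and 2 of 7 (Mcl1 and Bbc3) were higher and 0 lower in rd10-TMB over WT, beside 9.7% and 10.4%. Bbc3 met the count minimum through the rd10 libraries alone, so these counts over WT are not read as a result about the members. Between the rd10 libraries, 0 of 7 were past the limit, beside 2.43% higher and 4.14% lower. There Bbc3 was -0.29, but -0.71 with the mean over cells and -0.95 among cells with few immediate-early UMIs, on 19 and 50 UMIs.

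Müller glia-like cells with a UMI of Lcn2, a secreted acute-phase protein of reactive glia, were 9 of the WT, 653 of the rd10-vehicle and 300 of the rd10-TMB cells. They were deeper than the rest, with medians of 10153 against 8175 UMIs in rd10-vehicle and 11722 against 9064.5 in rd10-TMB. Bcl2 was 43.5 CPM in cells with Lcn2 (38.9 to 48.5) and 30.3 CPM in those without (27.5 to 33.2) in rd10-vehicle, and 50.2 and 33.7 CPM in rd10-TMB. Mcl1 was 393 CPM in both kinds of cell in rd10-vehicle, and 386 and 339 CPM in rd10-TMB. A cell without an Lcn2 UMI may still express the gene, since these cells were shallower.

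Endothelial-like cells, 137, 156 and 100 of them, had the same order of Mcl1. It stood at 410.4, 685 and 579.5 CPM in WT, rd10-vehicle and rd10-TMB, with log2 ratios of 0.74 for rd10-vehicle over WT (0.59 to 0.88), 0.50 for rd10-TMB over WT (0.34 to 0.66) and -0.24 for rd10-TMB over rd10-vehicle (-0.38 to -0.11). Bbc3 had 24, 58 and 16 UMIs, or 17.2, 32.1 and 12.7 CPM, and was the member with the widest gap between the rd10 libraries. Its log2 ratio was 0.90 for rd10-vehicle over WT (0.19 to 1.65) and -1.34 for rd10-TMB over rd10-vehicle (-2.24 to -0.52). Bcl2l1 was 256, 208 and 215 CPM, with a ratio of -0.30 for rd10-vehicle over WT (-0.51 to -0.09), and Bax was 106, 139 and 119 CPM, with a ratio of 0.39 (0.09 to 0.70). Bcl2 was 15.8, 16.6 and 27.0 CPM, and its ratio of 0.78 for rd10-TMB over WT had an interval of -0.04 to 1.62. Casp9 had 18, 13 and 14 UMIs, or 12.9, 7.21 and 11.1 CPM, and its ratios of -0.84 for rd10-vehicle over WT (-1.99 to 0.27) and 0.63 for rd10-TMB over rd10-vehicle (-0.57 to 1.84) were past 1.5-fold with 0 in their intervals.

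Markers of other cell types moved between the libraries in this cluster. The pericyte sum was 6071.7, 9320.8 and 9467.6 CPM, the ON cone bipolar sum 1194, 177 and 208 CPM and the OFF cone bipolar sum 905, 264 and 289 CPM in WT, rd10-vehicle and rd10-TMB, and their part in the ratios of Mcl1, Bbc3 and Bax was not tested. At a mitochondrial share of 10% or less, Mcl1 for rd10-vehicle over WT was 0.53, under the limit. The immediate-early sum of endothelial-like cells was 27296, 45539 and 45970 CPM. With few immediate-early UMIs, 113, 50 and 34 of these cells were left, and Bbc3 for rd10-TMB over rd10-vehicle was -1.83. With few Müller glia UMIs, 90, 68 and 39 were left, and it was -0.45, under the limit.

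The bipolar and unnamed clusters gave few differences beyond counting error. In unnamed cluster 6, Bax was 123, 72.8 and 112 CPM in WT, rd10-vehicle and rd10-TMB, with a log2 ratio of -0.75 for rd10-vehicle over WT (-1.27 to -0.26) and 0.63 for rd10-TMB over rd10-vehicle (0.10 to 1.17). WT was thus the highest library for Bax in cluster 6 and the lowest in cones. The cells of cluster 6 also differed in markers between the libraries. Its summed amacrine markers were 3966.2, 1292 and 1279.9 CPM, its horizontal markers 1653.4, 870 and 903 CPM and its ON cone bipolar markers 8068.6, 10662.2 and 11191.2 CPM, with 7 of 10 markers enriched for each of the amacrine and ON cone bipolar lists. Their part in the Bax values was not tested. In ON cone bipolar-like cluster 10, Bcl2l1 had 39, 15 and 6 UMIs, with ratios of -1.37 for rd10-TMB over WT (-2.90 to -0.12) and -1.86 over rd10-vehicle (-3.51 to -0.41). Cluster 10 also had 5 of 10 amacrine markers enriched, whose sum was 3009.3, 1482.7 and 1938.2 CPM, while its ON cone bipolar sum was 7226.2, 13399.7 and 12001.2 CPM, and the part of these shifts in Bcl2l1 was not tested. In OFF cone bipolar-like cluster 7, Bcl2l1 had 29, 15 and 9 UMIs, with a ratio of -1.26 for rd10-TMB over WT (-2.53 to -0.14). In cluster 7 the Müller glia marker sum was 481, 969 and 803 CPM, the cone sum 1533.1, 2315 and 2359.1 CPM and the rod bipolar sum 290, 495 and 526 CPM, and their part in Bcl2l1 was not tested. In rod bipolar-like cells, the best counted of the bipolar clusters, Bax was 93.1, 102 and 105 CPM, Bcl2l1 was 32.1, 31.4 and 30.8 CPM and Mcl1 was 50.4, 52.4 and 46.7 CPM, all within 1.5-fold. Bak1 there had 15, 18 and 31 UMIs, and its ratios of 0.59 for rd10-TMB over WT (-0.34 to 1.58) and 0.74 over rd10-vehicle (-0.14 to 1.66) were past 1.5-fold with 0 in their intervals.

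The other 79 genes of 8 pathway lists were read in the photoreceptors. Among rods, the lists of BH3-only genes, other BCL2 family genes, caspases with the apoptosome, IAP genes with their antagonists, mitochondrial death effectors, death receptor genes and p53 targets each had at most 1 gene past 1.5-fold in either direction for rd10-vehicle over WT, where 7.89% of all genes were higher and 14.7% lower. Their medians on the log2 scale ran from -0.40 to 0.23, beside -0.09 over all 9111 genes tested. The immediate-early list stood apart in size, with 10 of 13 genes higher, 0 lower and a median of 1.5. For rd10-TMB over WT in rods it had 11 of 13 higher with a median of 1.23, beside -0.08 over 9340 genes, and the p53 list had 0 of 8 higher and 2 lower, beside 6.46% of all genes higher and 13% lower. For rd10-TMB over rd10-vehicle in rods, 1 of 7 p53 genes was higher and 3 were lower, 0 of 13 immediate-early genes were higher and 1 was lower, beside 7.46% and 7.77% of all genes. At a minimum of 50 UMIs, 1 of 4 p53 genes was higher and 0 were lower. Of the BH3-only genes, 1 of 5 was higher and 1 lower in that comparison, and 0 of 3 were past the limit at 50 UMIs.

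Bnip3, a BH3-domain gene induced by low oxygen and active in mitophagy, was the BH3-only gene past 1.5-fold over WT in rods. It was 71.7, 38.3 and 38.8 CPM in WT, rd10-vehicle and rd10-TMB, with log2 ratios over WT of -0.90 (-1.5 to -0.34) and -0.89 (-1.39 to -0.40). In cones it was 44.9, 24.6 and 27.6 CPM, with ratios of -0.87 and -0.70. WT was thus the high library for Bnip3 in both photoreceptor clusters. Aen, a p53-induced nuclease, was 21.7, 16.3 and 10.3 CPM in rods, with a ratio of -1.08 for rd10-TMB over WT, and Trp53inp1, another p53 target, had a ratio of -0.81. Bcl2l13, a mitochondrial BCL2 relative, had a ratio of -0.65 for rd10-vehicle over WT, with an interval that held 0, and Ccng1, a p53 target, had 0.62 for rd10-TMB over rd10-vehicle, also with 0 in its interval.

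Among cones, rd10-vehicle over WT had 2 of 5 BH3-only genes lower, 1 of 5 IAP genes and antagonists higher and 13 of 14 immediate-early genes higher, with a median of 1.12 for the last beside -0.04 over 9729 genes, of which 7.32% were higher and 8.34% lower. For rd10-TMB over WT, 11 of 14 immediate-early genes were higher with a median of 0.77, beside -0.03 over 9480 genes, of which 6.39% were higher and 8.9% lower. For rd10-TMB over rd10-vehicle, 1 of 14 was higher and 3 were lower with a median of -0.38, beside 0.01 over 9940 genes, of which 3.77% were higher and 5.81% lower.

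Htra2, a mitochondrial protease that antagonises IAP proteins once released, was 17.5, 32.4 and 19.3 CPM in cones of WT, rd10-vehicle and rd10-TMB. Its log2 ratio was 0.88 for rd10-vehicle over WT (0.22 to 1.59) and -0.74 for rd10-TMB over rd10-vehicle (-1.31 to -0.19), so that rd10-TMB lay near WT. In rods Htra2 was 27.8, 37.2 and 21.4 CPM, with a ratio of -0.80 for rd10-TMB over rd10-vehicle (-1.59 to -0.01). Dffa, the inhibitor of the caspase-activated nuclease, was 9.83, 9.75 and 17.5 CPM in cones, with a ratio of 0.84 for rd10-TMB over rd10-vehicle (0.08 to 1.63). Bad, a BH3-only gene held inactive by survival kinases, was 21.1, 31.2 and 33.1 CPM in cones, with a ratio of 0.65 for rd10-TMB over WT (0.02 to 1.32).

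In Müller glia-like cells, more genes of these lists met the count minimum. The minimum is over the pair of libraries, and WT had 3319917 UMIs in this cluster against 22198511 and 16777299, so that a gene could meet it through the rd10 library alone and then be counted as higher. Of the genes counted as higher for rd10-vehicle over WT, the BH3-only genes Bid, Bik and Bmf had 5, 1 and 3 WT UMIs and the caspase genes Casp1 and Casp12 had 1 and 3 (genes chosen after their values were seen), so these counts are not read as a result about the lists. For rd10-vehicle over WT, 4 of 8 BH3-only genes were higher and 1 lower, 3 of 9 caspase and apoptosome genes higher and 1 lower, 4 of 7 death receptor genes higher and 0 lower, 6 of 13 p53 genes higher and 0 lower, and 9 of 16 immediate-early genes higher and 0 lower. The median of the death receptor list was 0.68 and that of the p53 list 0.22, beside -0.04 over 13871 genes, of which 11.6% were higher and 11% lower. Of the IAP genes 1 of 6 was higher, of the mitochondrial death effectors 1 of 9 was lower, and of the other BCL2 family genes 0 of 3 were past the limit. Over WT in rd10-TMB, 3 of 8 BH3-only genes were higher and 1 lower, and 3 of 9 caspase and apoptosome genes, 3 of 7 death receptor genes, 3 of 13 p53 genes and 9 of 16 immediate-early genes were higher with 0 lower, beside 9.7% and 10.4% of all genes. At a minimum of 50 UMIs, the BH3-only count for rd10-TMB over WT was 1 of 5 higher and 0 lower. With rd10-TMB set against rd10-vehicle, 0 genes of these lists were higher, while 2 BH3-only, 2 death receptor and 3 p53 genes were lower, beside 2.43% and 4.14% of all genes.

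The genes named next were chosen after their values were seen. Fas, the death receptor, was 2.71, 15.1 and 9.0 CPM in Müller glia-like cells of WT, rd10-vehicle and rd10-TMB, with a log2 ratio of 2.47 for rd10-vehicle over WT (1.53 to 3.61) and -0.74 for rd10-TMB over rd10-vehicle. Gadd45a, a stress-induced p53 target, was 16, 79.4 and 51.9 CPM, with ratios of 2.31 and -0.61 in the same comparisons. Tnfrsf1a, the main receptor of tumour necrosis factor, was 38.6, 80.7 and 62.2 CPM, and Casp8, the initiator caspase of death receptors, was 5.12, 10.6 and 8.35 CPM. Casp1, the caspase of inflammasomes, had 1, 163 and 87 UMIs, or 0.301, 7.34 and 5.19 CPM, and its ratio of 4.61 for rd10-vehicle over WT rests on that 1 UMI (2.11 to 9.92). Apaf1, the scaffold of the apoptosome, was 9.34, 6.08 and 7.51 CPM, with a ratio of -0.62 for rd10-vehicle over WT (-1.19 to -0.01), while that of -0.31 for rd10-TMB over WT (-0.89 to 0.30) was within 1.5-fold. For Fas and Gadd45a, rd10-TMB lay between the other libraries.

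The likeness of profiles was measured as the Pearson r of log2(CPM + 5) over 42 cluster and library sums from 19 clusters, among 9259 genes. It is a description, since the points share libraries, depth and cell types. Mcl1 was most like F11r (0.958), Psmb8 (0.955) and Parp14 (0.951). Bcl2l1 was most like Vwa1 (0.883), Grasp (0.871) and Emcn (0.853), and Bcl2 was like Asl (0.786) and Zswim6 (0.764). The closest genes of Bax were Dusp3 (0.778), Tgoln1 (0.728) and Dennd5a (0.721), those of Bak1 were Myo1c (0.783), Tpst2 (0.769) and Rps19 (0.759), those close to Bbc3 included Kctd12 (0.785) and Coro1c (0.722), and those of Casp9 were Abca1 (0.628), Mthfs (0.523) and Cul7 (0.506). Among the members themselves, the closest pair was Mcl1 and Bak1 at 0.676, while Bax and Bcl2 had -0.154 and Mcl1 and Bax 0.061.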

How the data were processed

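Retinal cells were dissociated with papain and profiled with 10x Genomics Chromium v3 chemistry, which reads 3′ ends of transcripts. Per the submitters' processing notes, Cell Ranger 6.0.1, Seurat 3.2.2 and the mm10 build were used. The authors removed doublets with Scrublet before deposit, kept cells with at least 500 detected genes, and clustered the cells after Harmony correction for library. The values the authors deposited for 15242 cells are on a natural log scale, as ln of 1 plus the UMIs of a gene per 10000 in its cell. The deposited cell table gives, for each cell, a library, a cluster number and a total UMI count. The authors' own tests over cells (MAST) were not used.

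UMI counts were recovered from all 32620606 entries, of which 100% were whole within 0.001 UMI. No cell filter was added. UMIs were summed per cluster and library and scaled to CPM in Python 3.11.15 with NumPy 2.4.6, SciPy 1.17.1 and pandas 2.3.3. Sums carry exact Poisson intervals, ratios have exact conditional intervals and shares have Clopper-Pearson intervals, at a level of 95% and for counting error alone. The ratio script was tested on simulated data. No p-value was computed, because each group was 1 library and cells are not replicates. For shares after thinning, cells under 1000 UMIs were left out. A gene with no UMI was given a limit of 3 UMIs.

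A marker counted toward a cluster name at 20 CPM or more and at least 2-fold over the rest of the cells. A name needed 3 such markers. The list with most markers among the top 10 genes by fold was taken, ties (as in clusters 0 and 3) went to the list with more markers in all, and a cluster tied on both stayed unnamed. These names may differ from those given in the study. The members, gene lists and tests were chosen with earlier results of these data known. Genes other than members were named in clusters 1 and 4 where they had at least 50 UMIs over the pair of libraries and were at least 1.5-fold apart, or where they were among the 3 profiles most like a member. Immediate-early genes that met this rule are given as a list, and a few genes that met it are not reported here. Profiles used sums of at least 200000 UMIs and genes of at least 1000 UMIs. Positions came from GENCODE vM21 and promoter windows from RefSeq. Alternatives covered the scaling (totals, totals without mitochondrial and ribosomal protein genes, median-of-ratios size factors, means over single cells), the pseudocount, the count minimum, the fold and subsets of cells.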

Additional observations from a re-analysis of the deposited data

How the results depend on the processing

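Of 280 alternatives for 29 member ratios in rods and cones, 271 stayed within the counting interval of the ratio as reported. The sign changed in 31 alternatives, of 13 ratios, and 26 of these stayed within that interval. Among the ratios past 1.5-fold, the one whose sign changed was Mcl1 in rods for rd10-vehicle over WT, at -0.19 among cells with few immediate-early UMIs. That subset, chosen after seeing the data, also gave 0.01 for Bcl2, -0.65 for Bcl2l1 and -0.29 for Mcl1 in rods for rd10-TMB over WT. It took Casp9 in rods from -0.04 to -1.48 for rd10-vehicle over WT and from 0.45 to 1.62 between the rd10 libraries, on 1 rd10-vehicle UMI. Between the rd10 libraries it gave -0.84 for Bcl2l1 in rods and 0.39 for Mcl1 in cones. Cells with at least 1000 genes, 289, 123 and 205 of the rods, gave -0.64 for Bax and -0.60 for Bcl2 in rods for rd10-vehicle over WT. Cells with few Müller glia UMIs gave -0.91 for Bcl2l1 in rods between the rd10 libraries. WT cells that had an Xist UMI but none from the Y chromosome, taken as female, gave 1.15 for Bax and -1.32 for Bcl2 in cones for rd10-vehicle over WT, on 16 and 14 WT UMIs, and 0.42 for Bcl2 in rods for rd10-TMB over WT, under 1.5-fold.

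Counts of members past the limit stayed the same in 114 of 152 alternatives. In rods, the 1 higher for rd10-vehicle over WT became 2 with few Müller glia UMIs, with no count minimum or at a looser fold limit, and 0 with few immediate-early UMIs. The 0 lower became 2 with at least 1000 genes, and 1 with few immediate-early UMIs or no minimum. For rd10-TMB over WT, the 1 higher became 2 with the mean over cells, without the 5% of deepest cells or with few Müller glia UMIs, 3 at the looser limit, and 0 at a mitochondrial share of 10% or less, with WT cells taken as female or with few immediate-early UMIs, where 1 was lower. Between the rd10 libraries, the 0 higher became 1 in 6 alternatives (mean over cells, at least 1000 genes, low mitochondrial share, few Müller glia UMIs, few immediate-early UMIs, no minimum) and 2 at the looser limit, and the 0 lower became 2 with few Müller glia UMIs and 1 with few immediate-early UMIs, no minimum or the looser limit. In cones for rd10-vehicle over WT, 2 were higher with WT cells taken as female or at a looser fold limit, and 2 were lower in those, with few Müller glia UMIs or no minimum, but 0 at a minimum of 50 UMIs. For rd10-TMB over WT, 2 were higher with the mean over cells and 1 lower with few Müller glia UMIs. Between the rd10 libraries, 0 were higher with few immediate-early UMIs and 2 with no minimum, and 0 were lower at a minimum of 50 UMIs.

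In Müller glia-like and endothelial-like cells, where all alternatives were added after seeing the data, 360 of 383 stayed within the counting interval, and the sign changed in 19, of 11 ratios. Mcl1 in Müller glia-like cells moved to 1.30 for rd10-vehicle over WT without the deepest cells, to 0.86 for rd10-TMB over WT and -0.24 between the rd10 libraries with the mean over cells, and to -0.29 between them with few immediate-early UMIs. Casp9 in endothelial-like cells turned from 0.63 to -1.58 for rd10-TMB over rd10-vehicle with few Müller glia UMIs, on 1 and 6 UMIs. Bbc3 in Müller glia-like cells went from -0.29 to -0.95 between the rd10 libraries with few immediate-early UMIs. At a minimum of 50 UMIs, 130 of 144 list counts stayed the same. The causes were not tested. No paired analysis was possible because each group was 1 library.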

Other observations

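Microglia-like cells, the resident macrophages of the retina, numbered 6, 52 and 30 in WT, rd10-vehicle and rd10-TMB and were too few in WT to be compared. Mcl1 was highest there, at 1457 CPM in rd10-vehicle (1329 to 1595) and 1294 CPM in rd10-TMB (1151 to 1449), on 470 and 300 UMIs. Bbc3 had 21 UMIs in microglia-like cells of rd10-vehicle and 4 in those of rd10-TMB, or 65.1 CPM (40.3 to 99.5) and 17.2 CPM (4.70 to 44.2). These UMIs came from 8 of 52 and 4 of 30 cells, or 15.4% (6.88 to 28.1) and 13.3% (3.76 to 30.7). Astrocyte-like cells, 20, 88 and 33 of them, had 136, 228 and 186 CPM of Mcl1 in WT, rd10-vehicle and rd10-TMB, the order also seen in Müller glia-like and endothelial-like cells.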
